A study of Mus musculus with 13 samples.

Results

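MP EPO-GEMM tumors are ovarian tumors raised in 8 to 12 week old wild-type (WT) C57BL/6 female mice by injecting a plasmid mix into the left ovary and electroporating the tissue in vivo, with a MYC transgene and CRISPR components aimed at Trp53. Among 10 such tumors, 3 had low RNA levels from chromosome 10, namely MP5, MP6 and MP8, and they are described here against the other 7 (MP1, MP2, MP3, MP4, MP7, MP9 and MP10). The 3 tumors make up 3 of the 13 libraries of the series, the other libraries being the 7 remaining tumors and 3 ovaries from untreated WT mice (WT1 to WT3). All 10 tumors carry the same genotype label, Myc;p53-/-, and neither they nor the WT ovaries were treated with a drug. Each library held polyadenylated RNA from bulk tissue, and each tumor was collected at end point. Electroporation targets whole ovarian tissue rather than one cell type, and bulk RNA mixes tumor cells with host stroma, blood and immune cells. In bulk samples, fewer cells of a type and less RNA per cell cannot be told apart.

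The low group was chosen by expression and not by a label. For each tumor, log2(TPM + 1) of every gene with a mean TPM (transcript abundance, scaled to a fixed total per library) of at least 5 was set against the WT mean, the median over the chromosome 10 genes was taken, and the median of the same value over the 20 nuclear chromosomes was subtracted. This value is called the chromosome 10 level below. Tumors under -0.4 on the log2 scale were called low. Of 11485 genes past the minimum, 537 lie on chromosome 10, out of 2629 chromosome 10 genes in the table. Because these values chose the groups, every level of chromosome 10 genes below is a description with no test.

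Tumor cells often gain or lose whole chromosomes or large pieces of them, and RNA from many genes of the affected stretch then tends to shift together, since most genes contribute RNA roughly in proportion to their copies. Expression averaged over many neighboring genes is therefore a common, indirect readout of such imbalance, although cell mixture and regulation move it too. Mouse chromosome 10 holds several genes well known from cancer work, among them the cyclin-dependent kinase genes Cdk1, Cdk2 and Cdk4 and the p53 antagonist Mdm2. DNA copy number was not analysed here.

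The chromosome 10 level was -0.61 in MP5, -0.73 in MP6 and -0.62 in MP8. In the other tumors it was -0.07 in MP1, -0.16 in MP2, -0.15 in MP3, -0.04 in MP4, 0.05 in MP7, 0.06 in MP9 and 0.01 in MP10. The WT ovaries lay between -0.0015 and 0.0057. No tumor fell near the limit, the closest below it being MP5 and the closest above it MP2. The mean was -0.66 ± 0.069 (SD, n = 3) in the low tumors and -0.04 ± 0.090 (SD, n = 7) in the others, a difference of -0.61.

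**Figure D1:**
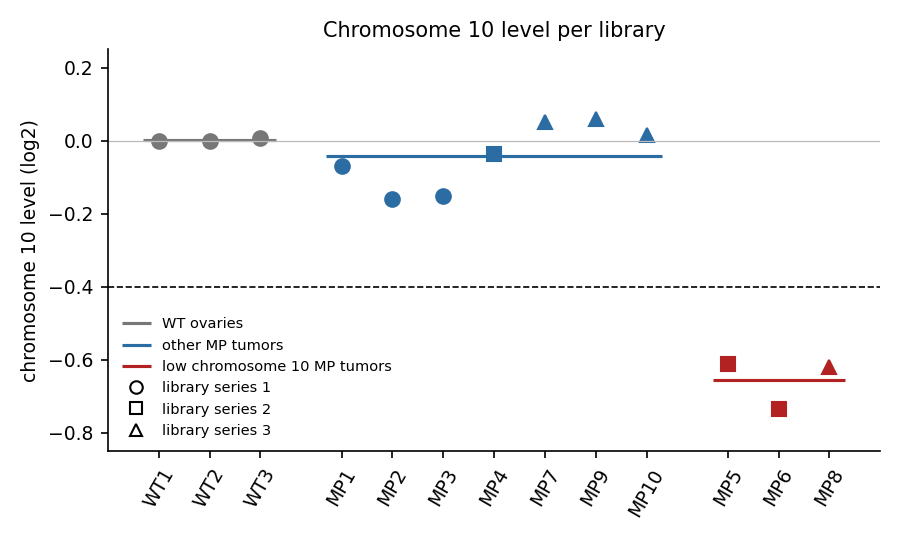
Chromosome 10 level (log2, WT mean near 0) in each library, with the group mean as a line, the limit of -0.4 dashed and the symbol giving the library series. MP5, MP6 and MP8 lie between -0.73 and -0.61, and the other 7 tumors between -0.16 and 0.06.

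Since the chromosome 10 level is a median, the rule itself placed most of the genes below their WT mean in the low tumors. The shares in the low tumors are therefore a description and no further support for a shift. Of the 537 genes, 74.5% lay below their WT mean, after centering, in MP5, 69.8% in MP6 and 68.9% in MP8, against 48.0% to 55.1% in the other tumors. Among genes of the other nuclear chromosomes the share was 49.2% to 53.6% in all 10 tumors. The quartiles of the chromosome 10 genes were still wide apart in every low tumor, from -1.10 to 0.03 in MP5, from -1.53 to 0.18 in MP6 and from -1.44 to 0.26 in MP8. Counted in reads, chromosome 10 took 3.81% of the library in MP5, 3.51% in MP6 and 3.67% in MP8. The share was 5.15% to 6.54% in 6 of the other tumors and 5.35% to 5.45% in WT ovaries. MP2 was the exception at 3.04%, although its chromosome 10 level was -0.16. In that library 10 genes took 55.1% of all TPM and mitochondrial genes 15.4%.

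The libraries also differ in ways that the groups do not explain. Their names carry project numbers that split them into series 1 (WT1 to WT3 and MP1 to MP3), series 2 (MP4, MP5 and MP6) and series 3 (MP7, MP8, MP9 and MP10). The low tumors are in series 2 and 3, and series 1 tumors count only among the others, so values within series 2 (MP5 and MP6 against MP4) and within series 3 (MP8 against MP7, MP9 and MP10) are given where they bear on a result. Depth was 3892690 to 19906507 reads in tumors, lowest in MP5, and 31445004 to 64013840 in WT ovaries. Trp53, the gene targeted in the model, stood at 57.3 ± 3.32 (SD, n = 3) scaled TPM in WT ovaries, at 19.1 in MP5, 11.4 in MP6 and 19.5 in MP8, and at 6.46 to 38.5 in 6 of the other tumors. MP10 had 130, above the WT ovaries, and whether Trp53 was disrupted in that tumor cannot be told from these values. Mouse Myc was 54.2 in MP5, 187 in MP6 and 259 in MP8 against 22.4 to 292 in the others, with overlapping groups, and reads of the transgene itself were not analysed here. Scaled TPM is TPM divided by a size factor set on 10488 genes off chromosome 10, so that the chromosome itself does not set the scale.

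Low levels were not unique to chromosome 10 when all 20 nuclear chromosomes were measured the same way. MP5 was also low for chromosome 13 at -0.85 and chromosome 12 at -0.42. MP6 and MP8 had no chromosome other than 10 under -0.4. Among the other tumors, chromosome 13 was -0.74 in MP4, chromosome 12 was -0.75 in MP10, chromosome 11 was -0.72 in MP9 and chromosome 4 was -0.41 in MP9. Levels above 0.4 were seen for chromosome 16 in MP10 (0.67) and chromosome 13 in MP2 (0.41). Chromosome 10 was the chromosome under the limit in the most tumors, 3 of 10, which follows from how the group was chosen.

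**Figure D2:**
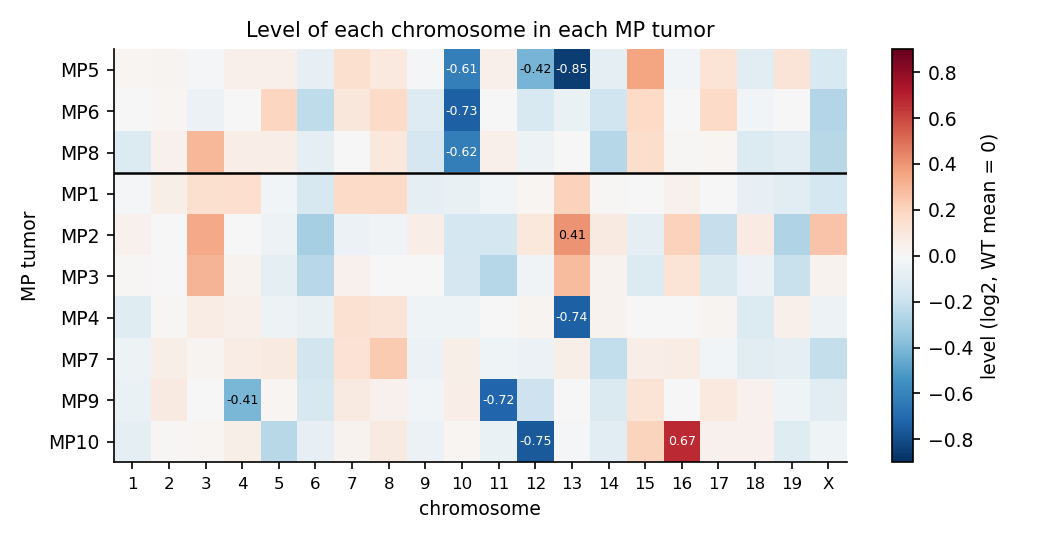
Level of each nuclear chromosome (columns) in each MP tumor (rows), in log2 with the WT mean near 0, the 3 low tumors above the line and values of at least 0.4 in size printed. Blue cells on chromosome 10 are found in MP5, MP6 and MP8, and MP5 has further low values of -0.42 on chromosome 12 and -0.85 on chromosome 13.

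The other 19 chromosomes entered the choice of the groups only through the median that the rule subtracts, and their levels are relative to that same median. These levels were tested with a 2-sided exact permutation test over the 120 ways to choose 3 of 10 tumors. The difference nearest to the threshold was on chromosome 15, which carries Myc. Its level was 0.23 ± 0.11 (SD, n = 3) in the low tumors and 0.03 ± 0.11 (SD, n = 7) in the others, higher by 0.20 (exact p = 0.0417, adjusted p = 0.369 by the Benjamini-Hochberg method). Chromosome 5 followed, higher by 0.15 (exact p = 0.0583). No chromosome passed an adjusted p of 0.05, and the smallest adjusted p was 0.369. The test took no account of library series. On chromosome 15 MP1, MP2 and MP3 of series 1 were at -0.0015, -0.08 and -0.13. Within series 2 MP5 and MP6 were at 0.35 and 0.18 against 0.0021 in MP4. Within series 3 MP8 was at 0.16 against 0.06 in MP7, 0.12 in MP9 and 0.20 in MP10.

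Along chromosome 10 the 3 low tumors did not have the same profile. In MP6 and MP8 the RNA level was low in segments at both ends, with a gene-dense stretch in the middle where the running median over 25 genes came near or above 0, for example 0.03 in MP6 and 0.21 in MP8 around Slc39a3. In MP5 it was low over much of the first part and close to the other tumors over the last. The running median of MP5 also came nearer 0 within the first part, for example -0.09 around Vsir and -0.16 around Gpx4. Taken in segments of 10 Mb and set against the mean of the 7 other tumors, a reference added after the WT reference had been seen to mix tumor and tissue differences, MP6 lay between -0.98 and -0.27 and MP8 between -0.75 and -0.35 in all 13 segments from 0 to 130 Mb. MP5 lay between -0.93 and -0.25 in the 10 segments from 0 to 100 Mb. In MP5 the segment from 100 to 110 Mb, with only 9 genes, was at 0.21, the segment from 110 to 120 Mb at -0.24 and the segment from 120 to 130 Mb at 0.08. In that last segment, with 80 genes, MP6 was at -0.55 and MP8 at -0.51.

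The position that best split the 537 genes of MP5 into 2 runs, by least absolute deviation, fell between Nudt4 (ending at base 95564146 of chromosome 10, as the table gives it, on the GRCm38 build) and Eea1 (starting at base 95940650). The median was -0.72 over the 405 genes before it and 0.08 over the 132 genes after it, a step of 0.80. Over the larger set of 559 and 187 tested genes, with the mean of the 7 others as reference, the medians of MP5 were -0.58 and -0.05, a smaller step. The same search gave a step of 0.23 in MP6 and 0.18 in MP8, and steps between -0.42 and 0.38 in the other tumors. The split removed 3.68% of the absolute deviation in MP5 and 4.04% in MP2, whose step of -0.42 runs the other way, so single genes scattered far more than the step. The position is the best of all possible ones in the same data and has no error estimate.

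Counts of genes that lay outside the other tumors describe the same values on both sides of the step and are no further support for it, since the position was chosen on them. Among 559 tested chromosome 10 genes before it, MP5 was below the lowest of the 7 others in 32.7%, MP6 in 29.7% and MP8 in 23.3%. Among the 187 genes after it the shares were 11.8% in MP5, 31.0% in MP6 and 23.5% in MP8. Off chromosome 10 they were 11%, 9.13% and 5.75%. In the last stretch MP5 stood near its own off-chromosome share, while MP6 and MP8 kept the share they had before it. The stretch holds Mdm2, Cdk2, Cdk4 and Prim1.

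**Figure D3:**
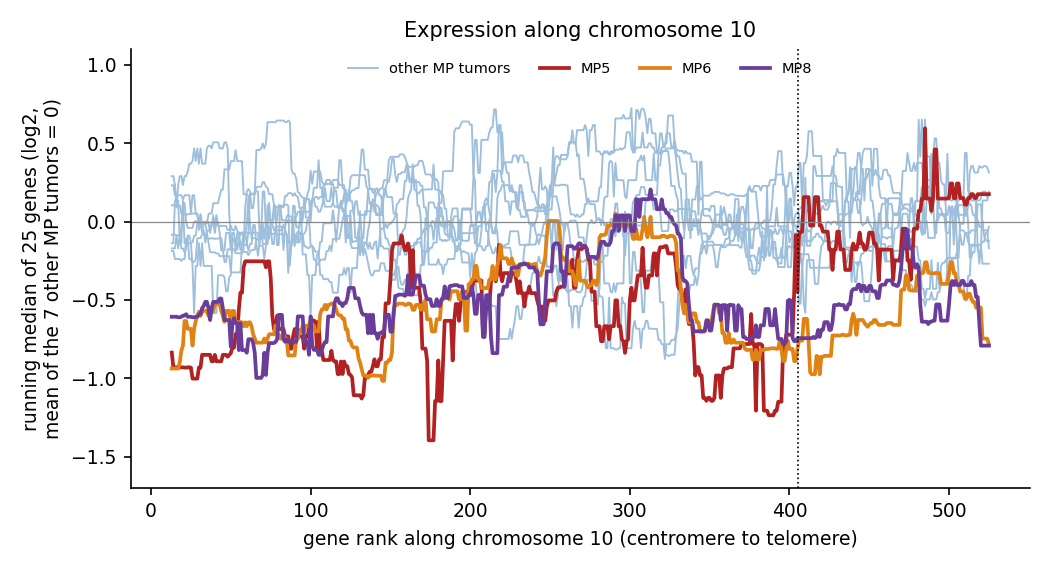
Running median over 25 neighboring genes of log2(TPM + 1), with the mean of the 7 other tumors at 0, against gene rank along chromosome 10, for MP5, MP6 and MP8 (thick lines) and the other tumors (thin lines), with the MP5 step dotted. MP5 has a median of -0.72 before the dotted line, with some stretches nearer 0, and 0.08 after it. MP6 and MP8 stay lower after it and have a stretch near 0 in the gene-dense middle.

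Segments in the gene-dense middle of the chromosome depended on which tumors served as the comparison. In the segment from 80 to 90 Mb, with 112 genes, MP5 was at -0.62, MP6 at -0.46 and MP8 at -0.35, while MP2 was at -0.37, so the groups overlapped. The segment from 70 to 80 Mb overlapped as well, again through MP2 at -0.50. The median of single-gene differences in the segment from 80 to 90 Mb was -0.44 over all tumors, -0.72 within series 2 and -0.45 within series 3. Against the WT mean, all 3 low tumors lay below all 7 others in 7 of the 12 segments of at least 10 genes. Against the mean of the other tumors this was so in 9 of 12.

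Most single chromosome 10 genes followed the level. The fit of the 3 low against the 7 other tumors took 15833 genes that reached a TPM of 1 in 3 or more MP tumors, of which 746 were on chromosome 10. The median log2 difference was -0.50 on chromosome 10, with quartiles at -0.95 and -0.08, and -0.04 for the 15087 genes elsewhere, with quartiles at -0.46 and 0.40. The difference was negative for 578 (77.5%) of the chromosome 10 genes and for 52.6% of the others. All 3 low tumors lay below all 7 others in 87 chromosome 10 genes (11.7%), beside 1.06% of the genes elsewhere. No chromosome 10 gene had all 3 low tumors above all others, beside 0.822% elsewhere.

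**Figure D4:**
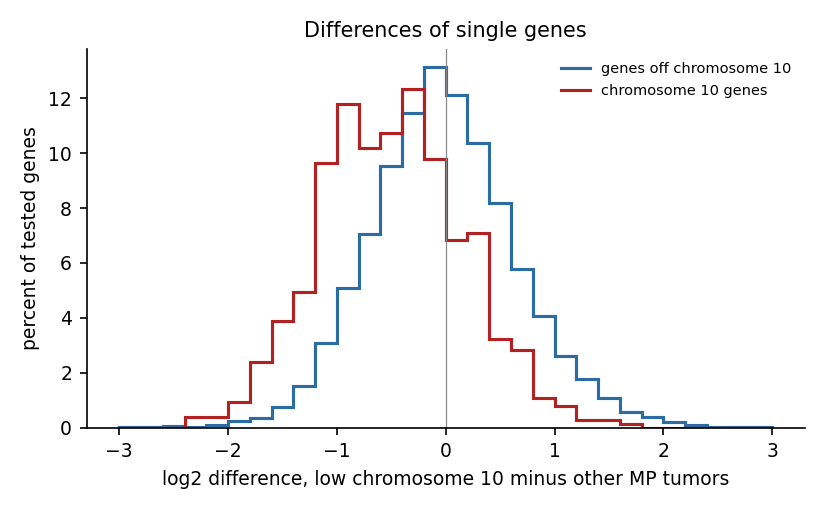
Percent of tested genes in bins of 0.2 of the log2 difference, low minus other tumors, for 746 genes on chromosome 10 and 15087 genes elsewhere, leaving out 14 genes beyond ±3. The chromosome 10 curve is shifted toward lower values, with a median of -0.50 against -0.04.

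The shift was also seen inside each library series. This largely follows from the rule, which sorted the same tumors by their chromosome 10 level. The median chromosome 10 difference was -0.55 within series 2 and -0.50 within series 3, while genes elsewhere had medians of -0.01 and -0.0015. Lower in both series at once, meaning MP5 and MP6 below MP4 and MP8 below MP7, MP9 and MP10, were 239 chromosome 10 genes (32%), beside 7.21% of genes elsewhere. Higher in both series were 9 genes on chromosome 10 (1.21%), beside 7.39% elsewhere. Protein-coding genes (641, median -0.50) and other biotypes (105, median -0.51) had the same median to 0.01.

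The chromosome 10 median was lower in genes of higher expression and rose with gene length, the latter also in genes elsewhere. In tertiles of all tested genes by mean scaled TPM the chromosome 10 median was -0.28, -0.52 and -0.82 from low to high, and the median elsewhere was -0.02, 0.09 and -0.19. In tertiles by transcript length it was -0.70, -0.53 and -0.32 from short to long on chromosome 10, and -0.27, -0.03 and 0.16 elsewhere. The order by length was thus the same on and off the chromosome, and the gap between the medians did not shrink with length. By expression the gap was smallest in the lowest tertile. The log2(value + 1) scale understates the difference of low genes. The part of length, series and depth in single-gene values was not tested.

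The 5 lowest chromosome 10 genes with a mean scaled TPM of at least 10 were Tle6, Gm24119, Gm15915, Mir7688 and Gpx4. Tle6 encodes a protein of the oocyte subcortical complex. It stood at 10.9 in MP5, 3.29 in MP6 and 8.27 in MP8, and at 5.94 to 157 with a median of 28.4 in the others (log2 difference -2.34 ± 0.83, SE). Gpx4, a selenoenzyme that protects membranes from lipid peroxidation, was at 94.9 in MP5, 148 in MP6 and 138 in MP8. The 7 others ranged from 115 to 1452 with a median of 507 (log2 difference -2.0 ± 0.75, SE, with -1.83 within series 2 and -0.66 within series 3). MP10 kept the Gpx4 groups from separating, and the top values were all in series 1. The other 3 are short or noncoding genes with log2 differences of -2.31, -2.20 and -2.14, and Gm24119 was at 494 in MP2. Within series 3 Gm24119 was at 0.35 and Mir7688 at 0.45.

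The 5 highest were Lingo3, Ankrd52, Spock2, Col18a1 and Bicc1, with log2 differences of 1.34, 1.15, 1.11, 1.03 and 0.93. In each of these the groups overlapped. Ankrd52 was at 36.2 in MP5, 13.7 in MP6 and 18.4 in MP8, and its low values among the others, 1.26 to 1.96, were the 3 tumors of series 1. Col18a1, a basement membrane collagen, was at 82.6, 39.6 and 6.04 in the low tumors and at 1.94 to 349 in the others. Its difference was 2.74 within series 2 and -2.84 within series 3. The higher level of the others depended on the series as well, since Spock2 was at -1.88 within series 2 and -0.97 within series 3, and within series 3 Bicc1 was at -1.28 and Ankrd52 at -0.77. Lingo3 was at 2.94 and 2.02.

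Cell cycle genes on chromosome 10 mostly had lower values in the low tumors, as did the chromosome as a whole. Of 26 such genes, all tested, 21 had a negative difference and 5 a positive one, with a median of -0.72. The count stands beside 77.5% of all tested chromosome 10 genes. Relative to genes off the chromosome the median was -0.68 over all tumors, -0.35 with library series as a covariate, -0.18 within series 2 and -0.52 within series 3. Cdk1, the kinase that drives entry into mitosis, was at 56.0 scaled TPM in MP5, 92.3 in MP6 and 98.2 in MP8. In the others it was 440 in MP1, 331 in MP2, 529 in MP3, 113 in MP4, 195 in MP7, 120 in MP9 and 126 in MP10. All 3 low tumors were below all others (log2 difference -1.46 ± 0.55, SE), and all 10 tumors were above the WT ovaries at 35.2 ± 10.9 (SD, n = 3). The series 1 tumors held the highest values, and the difference was -0.65 within series 2 and -0.55 within series 3. Cdk17 and Zwint were the other members of the list whose groups did not overlap, which makes 3 of 26, beside 11.7% of all tested chromosome 10 genes.

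Cdk4, the kinase of the G1 phase, was at 414 in MP5, 392 in MP6 and 390 in MP8. The others were at 1383 in MP1, 761 in MP2, 1136 in MP3, 615 in MP4, 705 in MP7, 631 in MP9 and 366 in MP10. MP10 alone was below the low tumors (log2 difference -0.89 ± 0.44, SE, with -0.61 within series 2 and -0.49 within series 3). Cdk2, which acts at the start of DNA replication, was at 29.3, 17.8 and 18.6 in MP5, MP6 and MP8 and at 24.0 to 80.9 in the others (log2 difference -0.83 ± 0.39, SE). Prim1, the catalytic primase subunit, was at 21.5, 36.2 and 53.9 against 20.4 to 191 (log2 difference -1.13 ± 0.67, SE), but the difference was 0.44 within series 2 and 0.02 within series 3. Pa2g4, a growth-related RNA-binding protein, and Nap1l1, a histone chaperone, had differences of -0.78 and -1.01, but 0.06 and 0.02 within series 2. Timeless, part of the fork protection complex, was at 0.28, with 1.16 within series 2 and -0.34 within series 3.

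Partners of these proteins encoded on other chromosomes had differences in both directions. None of the 8 cyclins and no other off-chromosome member of the partner lists passed the test (limma, adjusted p of 0.787 to 0.997). For the cyclins that pair with Cdk1, the log2 difference was -0.66 for Ccnb1 and -0.49 for Ccnb2, with Ccnb1 at 0.55 within series 2 and 0.42 within series 3. For those that pair with Cdk2, it was 0.19 for Ccna2, -0.31 for Ccne1 and -1.19 for Ccne2. Within series 2 and 3 Ccne1 was at 1.12 and 1.15 and Ccne2 at 0.0067 and 0.52. For those that pair with Cdk4, it was 0.89 for Ccnd1, -0.06 for Ccnd2 and 0.77 for Ccnd3, and the sister kinase Cdk6 was at 0.51. Ccnd3 was at -0.62 and -0.45 within series 2 and 3, and Cdk6 at -0.40 within series 3. Of the primase and polymerase alpha subunits, Prim2 was at -0.49 (0.60 within series 2), Pola1 at 0.12 and Pola2 at 0.44. Tipin, the partner of Timeless, was at -0.76, with -0.07 within series 2 and 0.52 within series 3. The difference between a chromosome 10 gene and its partner was not tested.

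**Figure D5:**
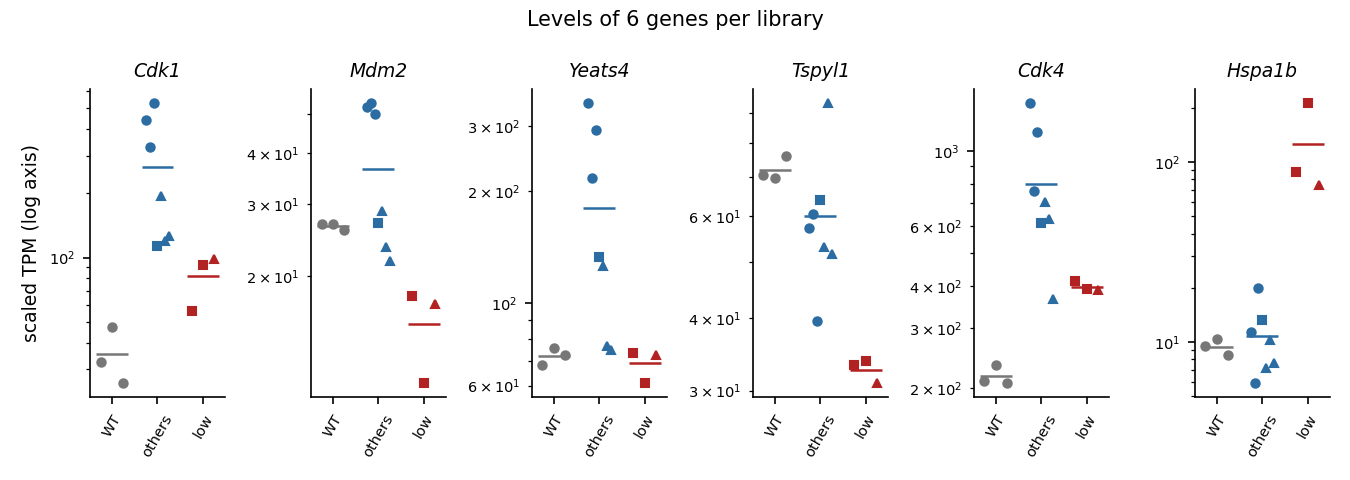
Scaled TPM (log axis) of 6 genes in each library of the WT ovaries, the 7 other MP tumors and the 3 low chromosome 10 MP tumors, with the mean as a line and circles, squares and triangles for library series 1, 2 and 3. For Cdk1, Mdm2, Yeats4 and Tspyl1 the low tumors lie below all others, for Cdk4 MP10 is lower still, and for Hspa1b, on chromosome 17, they lie above.

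Among genes of the p53 network and tumor suppressors on the chromosome, 21 of 24 (87.5%) had a negative difference, with a median of -0.45. Of all tested chromosome 10 genes 77.5% did. Mdm2, the ubiquitin ligase that degrades p53, was at 17.8 in MP5, 10.9 in MP6 and 17.1 in MP8. The others were at 52.0 in MP1, 53.1 in MP2, 49.9 in MP3, 26.9 in MP4, 28.9 in MP7, 23.6 in MP9 and 21.8 in MP10. The groups did not overlap, and the WT ovaries at 26.5 ± 0.528 (SD, n = 3) lay above the low tumors as well (log2 difference -1.15 ± 0.38, SE, with -0.90 within series 2 and -0.50 within series 3). Mdm2 lies past the MP5 step, in the stretch where the median of MP5 against the others was -0.05. Its relative Mdm4, on chromosome 1, differed by 0.01 ± 0.34 (SE, limma adjusted p = 0.997). Sesn1, a stress-response gene, was at 57.9, 48.7 and 36.9 against 52.9 to 206 (log2 difference -0.77). Gadd45b differed by -0.41 and the transcription factor gene Tcf3 by -0.09. Sirt1 and Hace1 were the other members with no overlap, 3 of 24 in all beside 11.7% of all tested chromosome 10 genes. The median relative to genes off the chromosome was -0.41, and -0.24 without MP8 and -0.25 without MP9.

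Of 30 genes of growth factors, oncogenes and signaling, 25 were tested, and 18 (72%) had a negative difference, with a median of -0.23. This share was below the 77.5% of all tested chromosome 10 genes. Relative to genes off the chromosome the median was -0.19, but -0.34 without MP3, -0.47 without MP5, -0.11 without MP9 and -0.61 with library series as a covariate. Yeats4, a chromatin reader, was at 73.6, 60.9 and 72.5 in the low tumors and at 74.6 to 346 in the others, with no overlap but a narrow margin (log2 difference -1.16 ± 0.51, SE, with -0.98 within series 2 and -0.30 within series 3). The deacetylase gene Hdac2 was at 50.9, 63.8 and 73.9 against 69.7 to 144 (-0.80), and the transcription coregulator Cited2 at 52.8, 48.2 and 33.6 against 28.3 to 126 (-0.61). Hmga2 did not pass the filter on low values and was at 0.86 or below in every tumor. Myb was at 0.20, 1.37 and 2.02 against 0.21 to 5.66, with overlapping groups.

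Immune genes on the chromosome had a negative difference in 16 of 17 tested (94.1%), of 22, with a median of -0.68. The share over all tested chromosome 10 genes was 77.5%. Lyz2, the lysozyme of myeloid cells, was at 1300 in MP5, 338 in MP6 and 772 in MP8 and at 266 to 6843 in the others. Its difference of -1.05 ± 0.97 (SE) was 0.05 within series 2 and 0.29 within series 3. The cytokine gene Mif was at 564, 1392 and 941 against 872 to 2225 (-0.66), and the lysosomal tetraspanin Cd63 at 204, 159 and 142 against 123 to 1147 (-1.09). Ifngr1 and Ddt were the members with no overlap, 2 of 17 beside 11.7% of all tested chromosome 10 genes. Stat2, a transcription factor of the interferon response, differed by -0.32, and Irf9, which acts with it and lies on another chromosome, by -0.50. The integrin subunit Itgb2 differed by 0.13, and its alpha subunits by -0.04 (Itgal), -0.17 (Itgam) and 0.10 (Itgax).

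Matrix genes were the list with a median above that of the other genes, though not within either series. Of 22, 17 were tested, 7 with a negative difference and 10 with a positive one, with a median of 0.07. The negative share was 41.2%, beside 77.5% of all tested chromosome 10 genes. The direction rested on MP5 and on the series, since relative to genes off chromosome 10 the median was 0.11 over all tumors, -0.46 without MP5, 0.02 to 0.47 without any other tumor, -0.59 with library series as a covariate, -0.04 within series 2 and -1.52 within series 3. The collagen VI gene Col6a1 was at 177 in MP5, 99.3 in MP6 and 24.2 in MP8 and at 33.9 to 817 in the others (-0.56). Col6a2 differed by 0.87 over all tumors but by -0.88 within series 2 and -1.98 within series 3. Their partner Col6a3 on chromosome 1 differed by -0.62, with 2.37 within series 2 and -2.14 within series 3. The proteoglycan gene Dcn was at 87.1, 7.17 and 3.55 against 9.50 to 737 (-1.44) and Lum at 60.9, 11.4 and 13.3 against 4.27 to 639 (-0.23). Within series 2 and 3 the difference was -1.34 and -3.04 for Col6a1, -1.88 and -3.84 for Dcn and 1.5 and -1.83 for Lum. MP9 had the highest value of Col6a1, Col6a2, Dcn and Lum. Fibroblast markers spread as widely. The sum of Col1a1, Col1a2, Col3a1 and Pdgfra was 1640 in MP5, 238 in MP6 and 177 in MP8, and 116 to 1875 with a median of 237 in the others, and their part in the matrix values was not tested.

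Respiration and metabolism genes were negative in 19 of 25 tested (76%), of 29 listed, near the chromosome's 77.5%, with a median of -0.65. Relative to genes off the chromosome it was -0.61 over all tumors, -0.43 with library series as a covariate, -0.71 within series 2 and -0.22 within series 3. Atp5b, the catalytic subunit of ATP synthase, was at 973, 1234 and 1080 against 1033 to 2917 (log2 difference -0.65 ± 0.44, SE, with -0.22 within series 3). Uqcr11, of complex III, differed by -1.72 over all tumors, by -1.41 within series 2 and by 0.0041 within series 3. Psap, a lysosomal protein precursor, differed by 0.25, and by -0.20 within series 3. Tfam, Slc25a3, Cirbp and Cry1 were the 4 members with no overlap, 4 of 25 beside 11.7% of all tested chromosome 10 genes, of which Tfam packages mitochondrial DNA and Slc25a3 carries phosphate into mitochondria.

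Translation and protein folding genes had a median of -0.82, with 24 of 27 negative (88.9%), beside 77.5% of all tested chromosome 10 genes. Relative to genes off the chromosome the median was -0.78 over all tumors, -0.58 with library series as a covariate, -0.70 within series 2 and -0.31 within series 3. Rps15 was at 1995, 3824 and 4572 in MP5, MP6 and MP8 and at 3739 to 19179 in the others (-1.54). Rps12 differed by -1.96 and Rpl41 by -1.71. For these 3 ribosomal protein genes the difference was -1.89, -1.81 and -1.39 within series 2 and -0.15, -0.07 and -0.31 within series 3. Ribosomal protein genes on other chromosomes had low values too, with a median of -0.84. The difference was negative in 50 of 50, beside 52.6% of all genes off chromosome 10. Relative to all genes off chromosome 10 the median was -0.79 over all tumors, -0.87 within series 2 and 0.37 within series 3. Mars, Sumo3 and Ddx50 were the members with no overlap, 3 of 27 beside 11.7% of all tested chromosome 10 genes. The ribosomal median of -0.79 was -0.49 without MP5.

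Chromosome 10 ovary and hormone genes were negative in 9 of 12 tested (75%), of 17, near the chromosome's 77.5%, with a median of -0.39. Relative to genes off the chromosome it was -0.35, but -0.69 without MP5, -0.22 without MP6, -0.10 without MP9 and -0.82 with library series as a covariate. Tspyl1, a nucleosome assembly protein, was at 33.2 in MP5, 33.7 in MP6 and 30.9 in MP8, against 57.1 in MP1, 60.4 in MP2, 39.5 in MP3, 63.8 in MP4, 53 in MP7, 93.8 in MP9 and 51.6 in MP10. The groups did not overlap (log2 difference -0.81 ± 0.31, SE), and the value was -0.91 within series 2 and -1.02 within series 3. Kitl, the KIT ligand made by granulosa cells, was at 85.1, 16.6 and 15.6 against 19 to 102 (-0.43, with -1.40 and -1.10 within series 2 and 3), MP5 being well above the other 2. Amh, the granulosa cell hormone, was at 229 ± 69.4 (SD, n = 3) in WT ovaries and at 21.3, 0.716 and 1.87 in the low tumors, against 0 to 2.37 in the others.

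Off chromosome 10, 2 of 15087 genes passed an adjusted p of 0.05 (limma, Benjamini-Hochberg over all tested genes), both higher in the low tumors (0.0133% called higher, 0% called lower). They were Hspa1b and Hspa1a, the stress-inducible HSP70 genes, which lie side by side on chromosome 17 and are nearly identical in sequence, so that reads may be split between them and they count as 1 signal. Hspa1b was at 88.3 in MP5, 213 in MP6 and 74.9 in MP8, and at 5.88 to 19.9 with a median of 10.2 in the others (log2 difference 3.36 ± 0.43, SE, adjusted p = 0.0436). Hspa1a was at 23.7, 71.6 and 28.6 against 1.11 to 4.45 (log2 difference 3.62 ± 0.47, SE, adjusted p = 0.0436). All 3 low tumors lay above all 7 others and above the WT ovaries for both genes. The differences within series were 3.29 and 3.04 for Hspa1b and 3.79 and 3.28 for Hspa1a. The calls depended on the fit, and with library series as a covariate their adjusted p was 0.934.

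Other heat shock genes, chosen after these values were seen, did not pass the test. Hsph1, a co-chaperone of the HSP70 family, was at 88.7, 187 and 109 in the low tumors and at 22.1 to 88.4 in the others, a narrow margin with no overlap (log2 difference 1.16, limma adjusted p = 0.787). Hspb1, a small heat shock protein gene, differed by 1.24, Dnajb1 by 0.79, Hsf1, the heat shock transcription factor, by 0.75 and the co-chaperone gene Bag3 by 0.59. Within series 3 Hspb1 was at 0.31, Hsf1 at -0.22 and Bag3 at -0.02. The constitutive Hspa8 differed by -0.14 and Hsp90aa1 by -0.06, but within series 2 and 3 they were at 0.17 and 0.43 and at 0.88 and 0.72. The 4 early response genes chosen with them, Fos, Jun, Egr1 and Atf3, did not pass either. No gene was called lower by limma. At an unadjusted p under 0.05 there were 318 lower and 363 higher genes, and limma-voom on recovered reads called 0 genes with 849 under an unadjusted 0.05. After the 2 called genes the smallest adjusted p was 0.787. In simulated data of the same size, 104 of 200 genes changed by 2 on the log2 scale were recovered with 6 false calls. The 200 were drawn only from genes with a spread below the median, and no series effect was simulated. The share recovered among genes of any spread was not measured.

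The genes next in rank, which did not pass (limma adjusted p = 0.787 for each), are given by their values. Toward higher levels in the low tumors they were Sort1, a sorting receptor, at 48.4, 28.9 and 25.4 against 1.24 to 10.2, Tyro3, a receptor tyrosine kinase, at 65.4, 79.7 and 28.0 against 1.08 to 14.2, and Ddah1, which breaks down a nitric oxide synthase inhibitor, at 41.7, 46.4 and 35.7 against 0.272 to 10.2. Toward lower levels they were Tfpi, an inhibitor of coagulation, at 33.5, 42.2 and 16.5 against 78.4 to 168, Il18, a cytokine, at 10.7, 0.29 and 9.77 against 20.9 to 195, and Mindy1, a deubiquitinase, at 18.4, 12.3 and 16.8 against 29.0 to 67.8. In all 6 the groups did not overlap. Off chromosome 10 all 3 low tumors lay below all others in 1.06% of genes and above them in 0.822%. The 6 were picked by their p values, so the lack of overlap adds no support.

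The hemoglobin genes Hbb-bs and Hbb-bt completed that list. Hbb-bs was at 290 in MP5, 215 in MP6 and 490 in MP8 and at 682 to 6675 in the others (log2 difference -2.65), and Hbb-bt at 46.4, 52.8 and 95.5 against 122 to 1000 (-2.37). All 7 genes of the red cell list had a negative difference, beside 52.6% of all genes off the chromosome, with a median of -1.65. For 4 of 7 the groups had no overlap, beside 1.06% of all genes off the chromosome. The median relative to all genes off chromosome 10 was -3.27 within series 2 and -1.20 within series 3. None passed the test. Summed over Hba-a1, Hbb-bs and Alas2, red cell RNA was 380 in MP5, 276 in MP6 and 641 in MP8, 900 to 7166 in the others and 118 to 235 in WT ovaries. The amount of blood in the tissue was not measured.

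Of the pathway lists off chromosome 10 none held a called gene. Their counts of negative differences stand beside 52.6% of all tested genes off the chromosome. Interferon-stimulated genes had a negative difference in 26 of 28 tested of 30, with a median of -0.50, for example Isg15 at 12.3, 1.19 and 7.69 against 4.35 to 37.3 (-1.74) and Ifit3 at 3.00, 0.686 and 1.95 against 0.942 to 10.6 (-1.22). Relative to all genes off the chromosome that median was -0.46, but -0.30 without MP4, -1.13 without MP5 and -0.09 without MP6. Targets of p53 were negative in 20 of 30, with a median of -0.44, with Btg2, an antiproliferative gene, at -1.22 and Sesn2 at 1.75. Within series 2 and 3 Btg2 was at -0.71 and -1.95 and Sesn2 at 1.03 and 0.39. Cell cycle and DNA replication genes were negative in 21 of 44, with a median of 0.08, with Cdca8 at 0.80 and Foxm1 at 1.5, the latter at 2.11 within series 2 and 0.03 within series 3. MYC target and ribosome biogenesis genes were negative in 19 of 30, with a median of -0.27, with Gnl3, a nucleolar protein, at -0.92 (0.31 within series 3) and Noc4l at 0.63. Relative to other genes the MYC target median was -0.23, but 0.17 with quantile normalization, 0.54 with library series as a covariate, 0.26 without MP5 and 0.03 without MP3. Among ribosomal protein genes, Rpl9 was at -1.66 and Rps24 at -1.58, but at -0.11 and 0.21 within series 3. Relative to other genes, cell cycle genes off the chromosome had a median of 0.13 over all tumors. It was 1.09 within series 2, 0.28 within series 3 and 0.70 with library series as a covariate. The median of 0.13 ranged from -0.08 to 0.38 when 1 tumor was left out and was below 0 without MP4, MP6, MP8, MP9 or MP10. The list on the chromosome stood at -0.68, -0.18, -0.52 and -0.35 in the same order. The difference of these medians was not tested.

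Markers of other cell types spread widely within both groups. Medians were 0.04 for T and NK cells (4 of 14 tested), -0.20 for macrophages (14 of 14), -0.66 for neutrophils (7 of 8), -0.37 for B cells (3 of 6), 0.18 for fibroblasts and collagens (16 of 16), 0.24 for endothelium (11 of 11), 0.35 for smooth muscle (7 of 8), -0.73 for epithelium (9 of 12), -0.0033 for Mullerian and mesothelial genes (6 of 8), 0.26 for granulosa and luteal cells (10 of 14) and -0.31 for oocytes (3 of 12). None of these lists held a called gene, and the medians depended on single tumors and on the series. Relative to all genes off chromosome 10, fibroblasts ranged from -0.48 to 0.83, endothelium from -0.26 to 0.59, smooth muscle from -0.14 to 0.84 and macrophages from -0.58 to 0.32 when 1 tumor was left out, below 0 without MP5 for the first 3 and above 0 without MP6 for macrophages. Epithelium was at -3.05 within series 2 and 0.20 within series 3. Mullerian and mesothelial genes were at -1.13 within series 2, -1.48 within series 3 and -0.97 with library series as a covariate. For granulosa and luteal cells these values were -1.26, -1.03 and -1.38, opposite in sign to the median over all tumors. The epithelial keratins and Epcam summed to 127 in MP5, 7.07 in MP6 and 103 in MP8, and to 5.46 to 1235 in the others, with 1 of these markers at 0 in MP6 and at most 1 at 0 in any of the others. Macrophage markers summed to 633, 253 and 505 against 235 to 773, and T and NK cell markers to 4.44, 0.082 and 2.12 against 0.15 to 11.6, with 4 of the 5 T and NK cell markers at 0 in MP6 and as many in at least 1 of the other tumors.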

How the data were processed

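Bulk polyadenylated RNA was sequenced from 3 WT ovaries and 10 tumors of the MP EPO-GEMM model, as 76 bp single-end reads. The authors deposited 1 table of TPM values per gene and library, with gene starts, ends and lengths. Per the submitters' processing notes the tools were FastQC 0.11.5, Trimmomatic 0.36, STAR 2.5.3a and featureCounts 1.6.3 on mm10/GRCm38, while the library protocol names HTSeq, RPKM and a human build, so the table itself was followed. Of its gene positions, 96.2% equal those of GENCODE M21. The table has 0 columns of other samples.

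TPM times transcript length came in whole steps of 1 read for 100% of values above 0 in every library (tolerance 0.01 reads), which gave the depths. In MP5, the shallowest tumor library, a single read on a 1 kb transcript equalled 0.790 TPM. Tumor groups came from the rule on chromosome 10. The members, the gene lists and the tests were chosen with earlier results of these data known. TPM was divided by median-of-ratios size factors and fitted as log2(scaled TPM + 1) with limma 3.58.1 (trended, robust) in R 4.3.3, over genes that reached a TPM of 1 in 3 or more MP tumors, without a covariate, and adjusted over all of them at a threshold of 0.05. SE is that of limma. The script was tested on simulated data. P values measure the spread between tumors, each from its own mouse as far as the labels say.

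Genes were named by rule: in each list of chromosome 10 genes the 3 with the highest mean plus Cdk1, Cdk4, Mdm2, Hmga2, Myb, Amh and Kitl, the 5 lowest and 5 highest chromosome 10 genes at a mean scaled TPM of at least 10, off the chromosome the 5 leading genes each way, the 2 with the largest statistic in the pathway lists, and all partners except 1 that is not reported here. The 2 leading genes of each cell type list, which the rule also names, are not given singly, and markers of those lists are named in sums or as hemoglobin genes. Members named for groups that do not overlap were chosen after their values were seen. Alternatives covered pseudocounts, filters, scalings, library series, limma options, limma-voom on recovered reads and leaving out tumors.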

Additional observations from a re-analysis of the deposited data

Results flagged for a closer look

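A value was singled out when it lay far from the rest of the 7 other MP tumors by Dixon's criterion. Of 100 values examined 8 did so, where chance alone gives about 1 in 20, or 5. For chromosomes these were the levels of -0.41 on chromosome 4 and -0.72 on chromosome 11 in MP9, -0.75 on chromosome 12 and 0.67 on chromosome 16 in MP10, and -0.74 on chromosome 13 in MP4. For genes they were Ccnd1 at 1.93 scaled TPM in MP3, the short noncoding gene Gm24119 at 494 in MP2 and Col18a1 at 349 in MP9. For Col6a3 and Col18a1, 2 of the genes given in the text, the low tumors lay above the others in library series 2 and below them in series 3. The series 2 difference was 2.37 for Col6a3 and 2.74 for Col18a1, and the difference between the series was not tested.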

How the results depend on the processing

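The chromosome 10 level of the low minus the other tumors, -0.61, was negative under every alternative, which the choice of tumors largely fixes. It was -0.52 with a mean TPM of at least 1 or of at least 20, and -0.64 to -0.57 leaving out each tumor. Against the mean of the 10 MP tumors in place of WT, 1 tumor (MP6) was below -0.4, since the low tumors then pull the reference down. The median chromosome 10 gene relative to other genes, -0.46, was -0.61 with a pseudocount of 0.1, -0.63 with a mean scaled TPM of at least 5, -0.11 with no filter on low values, -0.54 in series 2 only, -0.58 with limma-voom and -0.53 to -0.45 leaving out each tumor. The 2 calls off the chromosome, Hspa1a and Hspa1b, were the weakest result. There were 0 calls with a pseudocount of 0.1, a mean scaled TPM of at least 5, no filter, TPM as deposited, series as a covariate, series 2 and 3 only, series 2 only, series 3 only, limma-voom or without MP2 and MP10, 1 call with quantile normalization or with limma neither trended nor robust, and 0 to 2 leaving out each tumor, 2 only without MP3. No gene was called lower, and no other chromosome passed, under any alternative run for it. The log2 differences of Hspa1a and Hspa1b stayed between 2.90 and 4.18. The cause was not tested. In series 2 only and series 3 only a single tumor stands for 1 group and is assumed to vary like the rest.

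List medians relative to genes off chromosome 10 moved mostly with the library series. On chromosome 10, the cell cycle median was -0.35 with series as a covariate, -0.36 in series 2 and 3 and -0.18 in series 2. With the covariate growth genes were at -0.61 and ovary genes at -0.82. In series 3 p53 network genes were at -0.85, growth genes at -0.85, matrix genes at -1.52, translation genes at -0.31 and ovary genes at -0.85. Off chromosome 10, with the covariate MYC targets were at 0.54, T and NK cells at 0.62 and granulosa and luteal cells at -1.38. In series 2 cell cycle genes were at 1.09, interferon genes at -1.47, T and NK cells at 0.83, neutrophils at 0.65, B cells at -1.27, fibroblasts at 1.82, epithelium at -3.05, granulosa and luteal cells at -1.26, oocytes at -2.34 and red cells at -3.27. In series 3 MYC targets were at 0.57, ribosomal proteins at 0.37, p53 targets at -0.18, fibroblasts at -1.44, endothelium at -0.75, smooth muscle at -1.06 and granulosa and luteal cells at -1.03. Single genes turned often. Of the named and tested genes the sign differed from that over all tumors for 9 of 43 on chromosome 10 and 10 of 48 elsewhere in series 2, for 14 and 14 in series 3, and for 10 and 9 with the covariate. None of those elsewhere was called. Off chromosome 10 the turned values were, in series 2, Ccnb1 0.55, Ccne1 1.12, Ccne2 0.0067, Ccnd3 -0.62, Mdm4 -0.18, Prim2 0.60, Col6a3 2.37, Itgal 0.34, Hspa8 0.17 and Hsp90aa1 0.88, in series 3, Ccnb1 0.42, Ccne1 1.15, Ccne2 0.52, Ccnd3 -0.45, Cdk6 -0.40, Mdm4 -0.10, Prim2 0.0007, Tipin 0.52, Gnl3 0.31, Rps24 0.21, Hspa8 0.43, Hsp90aa1 0.72, Hsf1 -0.22 and Bag3 -0.020, in series 2 and 3 together, Ccnb1 0.035, Ccne1 0.60, Ccnd3 -0.29, Cdk6 -0.22, Mdm4 -0.19, Prim2 0.14, Hspa8 0.38 and Hsp90aa1 0.54, and with the covariate, Ccnb1 0.48, Ccne1 1.13, Ccne2 0.28, Ccnd3 -0.53, Mdm4 -0.14, Prim2 0.28, Tipin 0.24, Hspa8 0.31 and Hsp90aa1 0.80. With TPM as deposited they were Ccnb2 0.13, Ccne1 0.30, Ccnd2 0.54, Trp53 0.31, Prim2 0.11, Irf9 0.015, Itgal 0.17, Itgam 0.13, Hspa8 0.47 and Hsp90aa1 0.55, with quantile normalization Ccnd2 0.041, Mdm4 -0.094, Itgax -0.0004, Hspa8 0.56 and Hsp90aa1 0.49, and with limma-voom Itgal 0.050. Leaving out each tumor gave both signs for Ccnb1 (-1.03 to 0.043), Ccna2 (-0.015 to 0.55), Ccne1 (-0.74 to 0.29), Ccnd2 (-0.22 to 0.16), Mdm4 (-0.11 to 0.074), Trp53 (-0.50 to 0.19), Pola1 (-0.14 to 0.37), Col6a3 (-1.96 to 0.37), Itgal (-0.26 to 0.23), Itgam (-0.58 to 0.16), Itgax (-0.17 to 0.45), Hspa8 (-0.36 to 0.066) and Hsp90aa1 (-0.28 to 0.33). No paired analysis was possible because the compared tumors carry different numbers in the labels. Depth limits low genes most in MP5, with 3892690 reads, and 3 tumors against 7 in unequal series limit every test.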
